A study of Homo sapiens with 6 samples.

Results

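The genes described here encode the receptors and binding proteins of the insulin-like growth factors (IGFs): the receptors IGF1R, INSR and IGF2R and the binding proteins IGFBP2, IGFBP3, IGFBP4, IGFBP5, IGFBP6 and IGFBP7. They are 9 of the 17758 genes in the deposited table and were taken by gene symbol. RNA was sequenced from T47D, an oestrogen receptor-positive human breast carcinoma cell line, in 3 libraries of cells carrying lentiviral short hairpin RNA against CUEDC1 (labelled CUEDC1 knockdown, here shCUEDC1) and 3 libraries of cells carrying a non-targeting hairpin (labelled Control, here shNC). All cells were stably transduced and grown in the same medium with 10% serum, and no age, dose or time point is given. The libraries are described as biological replicates. The number of hairpins is not stated, nor whether the libraries within a group came from separate infections, so each p-value reflects library-to-library spread that may be technical.

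IGF1 and IGF2 act through IGF1R, a receptor tyrosine kinase that signals to PI3K and AKT and to the ERK kinases. INSR, the insulin receptor, is a close relative that also forms hybrid receptors with IGF1R, whereas IGF2R, the cation-independent mannose 6-phosphate receptor, has no kinase and takes IGF2 and lysosomal enzymes to lysosomes. The high-affinity binding proteins are secreted, hold IGFs away from the receptors or release them after proteolysis, and can also act at the cell surface on their own. IGFBP7 binds IGFs with low affinity. In breast cancer cells, IGF1R and its substrate IRS1 are known as part of the crosstalk between oestrogen and growth factor signalling.

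Totals per library were between 18924327 and 19731609 estimated reads, and all 9 genes passed the filter on low counts. CUEDC1, the target of the hairpin, had 23.2, 24.4 and 22.8 TPM (transcript abundance scaled to a fixed total and corrected for length) in the shCUEDC1 libraries, against 79.4, 80.5 and 70.6 TPM in the shNC libraries. Library shNC 3 stood apart from its group. Across the 10142 genes that averaged 10 CPM (reads scaled to library size) or more, the SD of the log2 difference was 0.236 and 0.256 between shNC 3 and the other shNC libraries, while shNC 1 and shNC 2 differed by 0.107 and pairs of shCUEDC1 libraries by 0.117 to 0.124. Values without shNC 3 are therefore given for the binding proteins and for some of the other named genes. Luminal epithelial markers were present in every library, with a summed level of 12530 to 12950 TPM in shCUEDC1 and 10400 to 12880 TPM in shNC over 10 of 10 genes. In this list 1 of 10 tested genes was called (SPDEF, higher, log2 change 0.328, edgeR adjusted p = 0.00209). Endothelial markers summed to at most 0.64 TPM in shCUEDC1 and 0.80 TPM in shNC, and the fibroblast markers PDGFRA, PDGFRB and FAP were below 0.1 TPM in every library. The summed fibroblast list was 20.4 to 21.9 TPM in shCUEDC1 and 12.4 to 14.7 TPM in shNC, with 1 of its 5 tested genes called (COL1A1, higher). The summed leukocyte list was 20.2 to 20.6 TPM in shCUEDC1 and 12.4 to 13.8 TPM in shNC, with 1 of 6 tested genes called (LYZ, higher) and CD3E below 0.1 TPM in every library. The basal or myoepithelial list was 56.2 to 58.7 TPM in shCUEDC1 and 47.3 to 83.6 TPM in shNC. Of all genes tested by edgeR, 9.96% were called (adjusted p below 0.05). The part of these lists in the results was not tested.

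Of the 9 genes, 1 rose and 2 fell in shCUEDC1 libraries (edgeR quasi-likelihood test, Benjamini-Hochberg adjusted p below 0.05 over the 13824 genes tested), and all 3 were binding proteins. By the same test 9.96% of all tested genes were called, 5.19% higher and 4.77% lower. IGFBP3 fell to 0.255 times its control level, IGFBP7 fell at low counts and IGFBP4, the most abundant member, rose by 21.1%. No receptor was called by edgeR, and none had an unadjusted edgeR p below 0.05. The median log2 change of the 9 genes was -0.06, beside -0.004 over all genes tested.

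**Figure D1:**
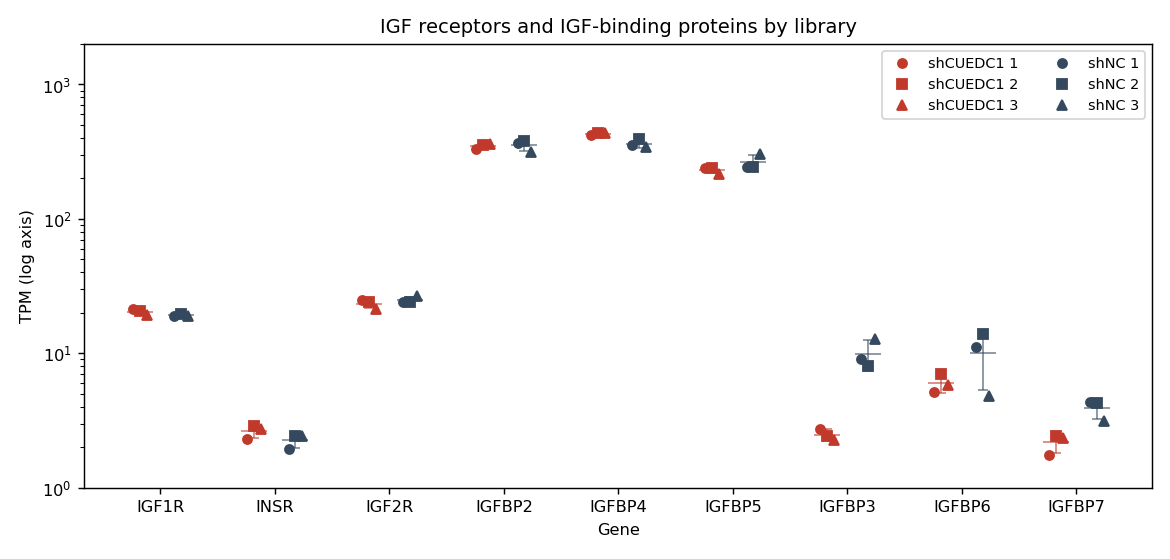
TPM (log axis) of the 3 receptors and 6 binding proteins in each library, shCUEDC1 in red and shNC in dark blue, with the mean as a dash and the SD of 3 libraries as a bar. IGFBP2, IGFBP4 and IGFBP5 average 247 TPM or more over the 6 libraries, and IGFBP3 averaged 2.48 TPM in shCUEDC1 and 9.95 TPM in shNC.

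IGFBP3, the main carrier of IGFs in blood and a known target of p53 and TGF beta signalling, occupies bases 45912245 to 45921874 of chromosome 7, minus strand (GRCh38, GENCODE v29). Its level was 2.75, 2.41 and 2.27 TPM in shCUEDC1 1, 2 and 3, against 9.02, 7.99 and 12.8 TPM in shNC 1, 2 and 3. Every shCUEDC1 library was below every shNC library, and shNC 3 was the highest of all. IGFBP3 fell by 74.5%, a log2 change of -1.97 with a 95% interval of -2.38 to -1.56 (edgeR adjusted p = 3.33e-04). With 3 libraries per group the exact permutation p (two-sided) was 0.1, which is also its lower limit. IGFBP3 was called under 13 of 13 alternative settings, with a log2 change of -1.76 without shNC 3 and -1.76 to -2.10 when any single library was left out. Among all genes tested, 10.6% were called by DESeq2, 10% with RLE factors, 10.5% with the CPM filter, 8.26% by limma-trend, 9.84% by limma-voom, 7.97% without a filter and 8.08% with a replicate block. Leaving out 1 library gave 3.66%, 3.34% and 3.71% without shCUEDC1 1, 2 and 3, and 4.93%, 7.26% and 28.1% without shNC 1, 2 and 3. A called fall of more than 2-fold was found for 0.767% of the genes tested. In bulk RNA, fewer cells expressing a gene and less RNA per cell cannot be told apart.

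IGFBP4, which binds IGFs without the cell-surface attachment known for IGFBP3 and IGFBP5, occupies bases 40443461 to 40457731 of chromosome 17, plus strand. It had 419, 435 and 438 TPM in shCUEDC1 1, 2 and 3, against 353, 393 and 341 TPM in shNC 1, 2 and 3. The groups did not overlap, and the lowest value was that of shNC 3. It rose by 0.28 on the log2 scale (95% interval 0.13 to 0.42), with an edgeR adjusted p of 0.0265 and all 3 shCUEDC1 libraries above all 3 shNC libraries. Without shNC 3 the change was 0.22 and remained called (edgeR adjusted p = 4.47e-04), in a fit that called 28.1% of all tested genes. The call was lost without shCUEDC1 1, 2 or 3 (edgeR adjusted p of 0.0693, 0.110 and 0.124) or without shNC 1 (0.0953).

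The RefSeq promoter windows of the member that fell furthest and of the member that rose are shown as sequence context for these changes. Both come from RefSeq (GRCh38.p14), run from 250 bases before to 50 bases after the start site, and read 5′ to 3′ on the gene's strand. The RefSeq start site is 602 bases inside the GENCODE v29 gene for IGFBP3, so that its whole window lies within the gene bounds given above, and 11 bases before the GENCODE v29 gene for IGFBP4. The first window is chr7:45921223-45921522 on the minus strand and the second chr17:40443200-40443499 on the plus strand. Capitals mark TATAAA and the GC box GGGCGG, searched on both strands.
IGFBP3: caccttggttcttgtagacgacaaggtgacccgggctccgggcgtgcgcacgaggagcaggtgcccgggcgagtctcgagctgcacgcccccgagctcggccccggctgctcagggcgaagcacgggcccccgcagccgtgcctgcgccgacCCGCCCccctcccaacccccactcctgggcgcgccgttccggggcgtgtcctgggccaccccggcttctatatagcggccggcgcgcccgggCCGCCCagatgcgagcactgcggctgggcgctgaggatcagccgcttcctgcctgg
IGFBP4: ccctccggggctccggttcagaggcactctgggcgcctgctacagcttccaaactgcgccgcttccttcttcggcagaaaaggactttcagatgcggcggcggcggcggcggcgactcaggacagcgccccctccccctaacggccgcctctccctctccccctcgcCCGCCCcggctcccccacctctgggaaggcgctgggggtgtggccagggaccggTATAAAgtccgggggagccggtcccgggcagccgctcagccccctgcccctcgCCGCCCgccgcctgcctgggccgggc
The IGFBP3 window holds 2 GC boxes, both on the opposite strand, starting 98 and 6 bases before the RefSeq start site. TATAAA was not in it, but only those exact letters were searched. The similar letters tatata do occur in the IGFBP3 window and are not marked. The IGFBP4 window holds TATAAA 29 bases before the start site and GC boxes, on the opposite strand, 83 bases before it and at base 25 after it. Of 35116 RefSeq promoter windows of this length, 45% hold a GC box and 11.5% hold TATAAA. The full oestrogen response element GGTCANNNTGACC, searched in the same way, was in neither window and in 0.057% of all windows. The letters CCAAT were in neither window and in 34.6% of all windows. The E-box CACGTG was likewise in neither, and 7.26% of all windows hold it. The G and C content of the windows was 74.7% for IGFBP3 and 74.0% for IGFBP4, beside a median of 58.7%. The table of promoters held 8 of the 9 genes.

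IGFBP7, a secreted protein of the extracellular matrix and vessel wall, occupies bases 57030773 to 57110385 of chromosome 4, minus strand. It was at 1.76, 2.43 and 2.34 TPM in shCUEDC1 1, 2 and 3, against 4.34, 4.24 and 3.12 TPM in shNC 1, 2 and 3. These values rest on 23.0, 32.0 and 27.3 estimated reads in shCUEDC1 and 57.6, 56.5 and 36.9 in shNC. The groups did not overlap, and shNC 3 lay between the other shNC libraries and the shCUEDC1 libraries. The log2 change was -0.88 (95% interval -1.43 to -0.34), with an edgeR adjusted p of 0.04996, at the threshold itself. IGFBP7 was called under 4 of 13 alternatives, among them the fit without shNC 3 (log2 change -1.04, edgeR adjusted p = 0.0011). That fit called 28.1% of all tested genes. IGFBP7 was not called by DESeq2 (adjusted p = 0.0811), by limma-voom (0.0593), without a low-count filter (0.0512) or without any other single library (0.110 to 0.194). Its exons overlap those of POLR2B and IGFBP7-AS1 on the opposite strand, and the use of strand in counting is not given in the sources used here. POLR2B was at 79.3 ± 1.98 TPM in shCUEDC1 and 79.2 ± 4.90 TPM in shNC (SD, n = 3 each).

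IGFBP6 (chromosome 12, bases 53097436 to 53102345, plus strand), a binding protein with a preference for IGF2, had the widest spread of the 9 genes among the shNC libraries relative to its mean. It had 5.16, 6.99 and 5.82 TPM in shCUEDC1 1, 2 and 3, against 11.2, 13.9 and 4.81 TPM in shNC 1, 2 and 3. The shCUEDC1 libraries lay below shNC 1 and shNC 2 but above shNC 3. With all libraries the log2 difference of -0.72 had a 95% interval of -1.52 to 0.08 and was not called (edgeR adjusted p = 0.248). Without shNC 3 it was -1.05 (edgeR adjusted p = 2.80e-05), so this single control library decided the call. That fit called 28.1% of all tested genes, beside 9.96% with all libraries. The value of shNC 3 was 1.36 below the mean of shNC 1 and 2 on the log2(TPM + 0.1) scale (-1.36).

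IGFBP5, which binds the extracellular matrix and is abundant in the involuting mammary gland, had 238, 240 and 216 TPM in shCUEDC1 1, 2 and 3, against 242, 242 and 305 TPM in shNC 1, 2 and 3. All shCUEDC1 values lay below all shNC values, by a margin of under 3 TPM for the nearest libraries. It differed by -0.16 on the log2 scale, with a 95% interval of -0.33 to 0.02 (edgeR adjusted p = 0.241), and by -0.05 without shNC 3. The exons of IGFBP5 overlap those of AC007563.2 on the opposite strand, and the use of strand in counting is not given here either. IGFBP2, a binding protein of fetal and tumour tissue, had 332, 354 and 363 TPM in shCUEDC1 and 368, 380 and 313 TPM in shNC. The groups overlapped, with 0.006 between them on the log2 scale (95% interval -0.19 to 0.20) and an edgeR adjusted p of 0.976. IGFBP2 (bases 216632828 to 216664436, plus strand) and IGFBP5 (bases 216672105 to 216695525, minus strand) are neighbours on chromosome 2, 7668 bases apart with their 3′ ends facing each other and no protein-coding gene between them. In shNC 3 they lay in opposite directions from shNC 1 and 2, IGFBP2 at -0.25 and IGFBP5 at 0.33 on the log2(TPM + 0.1) scale.

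**Figure D2:**
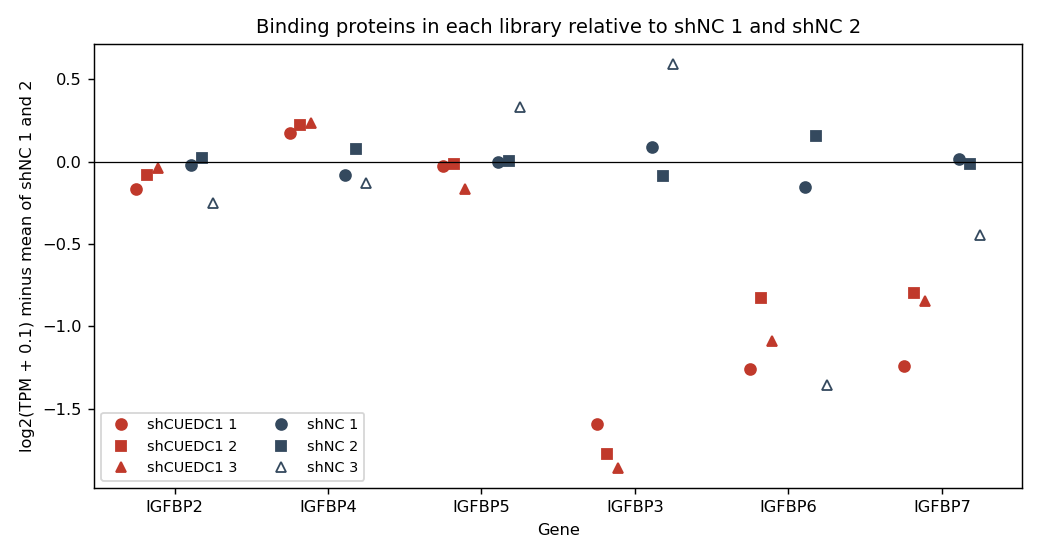
Level of each binding protein in each library as log2(TPM + 0.1) minus the mean of shNC 1 and shNC 2, with shCUEDC1 in red, shNC in dark blue and shNC 3 as an open triangle. The open triangle lies at 0.59 for IGFBP3 and 0.33 for IGFBP5 but at -1.36 for IGFBP6 and -0.45 for IGFBP7.

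The library shNC 3 thus differed from its group in both directions within the family. For IGFBP3, IGFBP4 and IGFBP5 it was on the far side of its group from the shCUEDC1 libraries. For IGFBP6, IGFBP7 and IGFBP2 it was on the same side as the shCUEDC1 values or beyond them. Of the 9 genes, 4 had TPM values that did not overlap between groups (IGFBP3, IGFBP4, IGFBP5 and IGFBP7), beside 30.7% of all genes tested. Without shNC 3, where 28.1% of tested genes were called, 1 of the 9 rose and 3 fell, beside 14.3% and 13.8% of all tested genes.

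**Figure D3:**
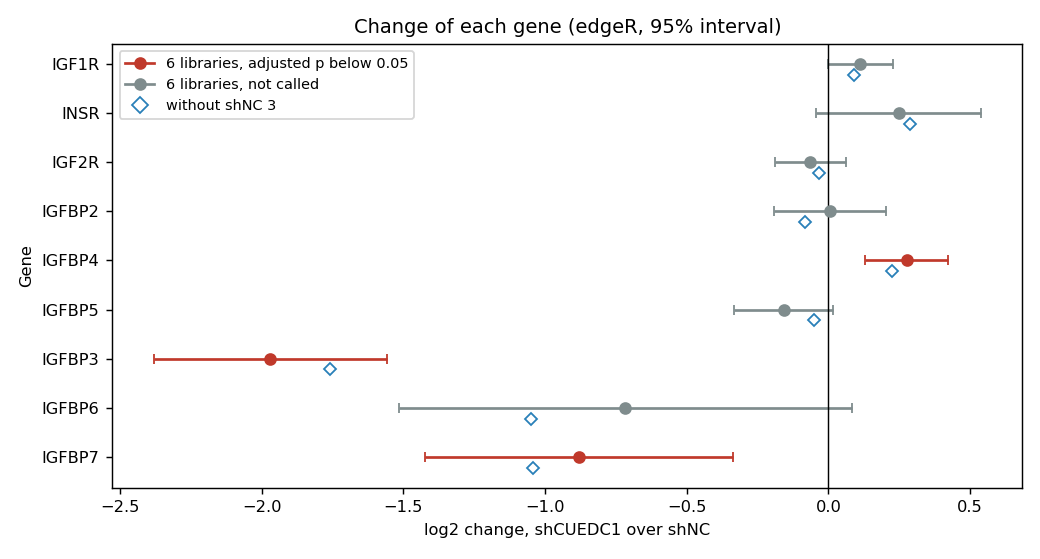
Log2 change of each gene, shCUEDC1 over shNC, from edgeR with its 95% interval (red where the adjusted p is below 0.05) and the estimate without shNC 3 as an open diamond. IGFBP3 lies furthest from 0 at -1.97, and the largest shift without shNC 3 is that of IGFBP6, at -0.72 with all libraries and -1.05 without it.

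The receptors lie on different chromosomes, IGF1R on 15 (98648539 to 98964530, plus strand), INSR on 19 (7112255 to 7294034, minus strand) and IGF2R on 6 (159969099 to 160113507, plus strand). IGF1R had 21.3, 20.7 and 19.1 TPM in shCUEDC1 1, 2 and 3, against 19.03, 19.56 and 18.91 TPM in shNC 1, 2 and 3. The groups overlapped, and a log2 difference of 0.11 had a 95% interval of -0.002 to 0.23 (edgeR adjusted p = 0.207). INSR, measured here without separating its isoforms, had 2.30, 2.90 and 2.73 TPM in shCUEDC1 and 1.94, 2.44 and 2.44 TPM in shNC, a log2 difference of 0.25 (95% interval -0.04 to 0.54, edgeR adjusted p = 0.271). IGF2R had 24.9, 24.2 and 21.3 TPM in shCUEDC1 and 24.3, 24.3 and 26.5 TPM in shNC, a log2 difference of -0.06 (95% interval -0.19 to 0.06, edgeR adjusted p = 0.537). None of the 3 receptors was called under any of 13 alternatives. The 95% intervals leave out a change of 1.5-fold in either direction for all of them.

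The ratio of IGF1R to INSR transcripts, per length, was 9.26, 7.14 and 7.01 in shCUEDC1 1, 2 and 3, against 9.81, 8.02 and 7.75 in shNC 1, 2 and 3. The groups overlapped, and the log2 ratio differed by -0.13 (exact two-sided permutation p = 0.5, with 0.1 the smallest possible). In both groups IGF1R was thus the more abundant of the 2 tyrosine kinase receptors at the RNA level.

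By mean TPM over 6 libraries, the order of the 9 genes was IGFBP4 (396), IGFBP2 (352), IGFBP5 (247), IGF2R (24.2), IGF1R (19.8), IGFBP6 (7.99), IGFBP3 (6.21), IGFBP7 (3.04) and INSR (2.46). The ranges of IGFBP4 and IGFBP2 overlapped over the libraries, with IGFBP4 the higher in 5 of 6. Ranges also overlapped between IGFBP6 and IGFBP3, between IGFBP3 and IGFBP7 and between IGFBP7 and INSR. The other neighbours in the order did not overlap, but the lowest IGF2R value (21.32 TPM) only just exceeded the highest IGF1R value (21.3 TPM).

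The 6 binding proteins together made 999, 1040 and 1027 TPM in shCUEDC1 and 987, 1042 and 980 TPM in shNC, with overlapping groups. IGFBP2, IGFBP4 and IGFBP5 made up 98.9% to 99.0% of that sum in shCUEDC1 and 97.5% to 97.9% in shNC. The share of IGFBP4 was 42.1% ± 0.434 in shCUEDC1 and 36.1% ± 1.53 in shNC (SD, n = 3 each), a difference of 6.04 percentage points. The share of IGFBP3 was 0.243% ± 0.0286 in shCUEDC1 and 0.997% ± 0.281 in shNC. IGFBP3 therefore fell within a pool whose summed level had overlapping values in the groups. These shares were not tested.

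**Figure D4:**
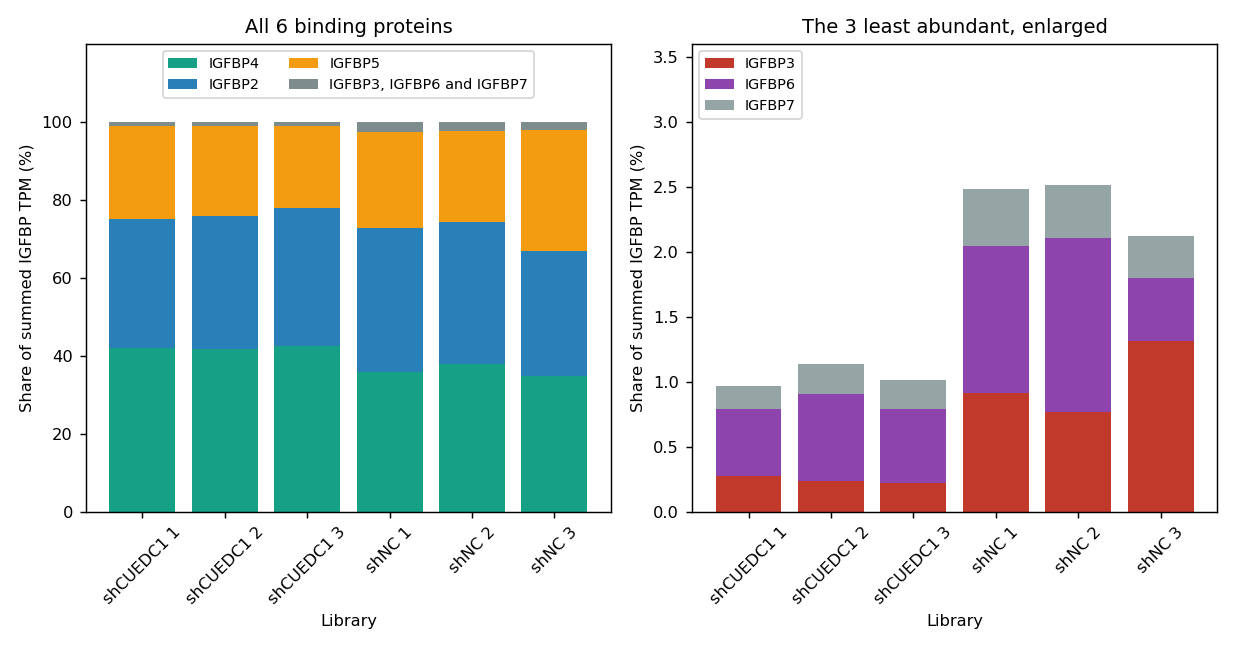
Share of the summed TPM of the 6 binding proteins in each library (left), and the 3 least abundant on a larger scale (right). IGFBP4 is at 41.8% to 42.6% in shCUEDC1 and 34.8% to 37.8% in shNC, and IGFBP3 at 0.221% to 0.275% in shCUEDC1 and 0.767% to 1.31% in shNC.

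By root mean square difference of centred log2 CPM over the 6 libraries, among 12628 genes, the patterns most like that of IGFBP3 were those of CCL2 (0.19), a chemokine, and TIMP3 (0.221), a matrix-bound inhibitor of metalloproteinases. For IGFBP4 they were SULT2B1 (0.02), a hydroxysteroid sulfotransferase, and OASL (0.0245), an interferon-induced protein. For IGFBP7 they were NGFR (0.0669), the low-affinity neurotrophin receptor, and BIN1 (0.0671), a membrane-curvature protein. These patterns share the difference between groups and the libraries.

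Other genes of the IGF system were read from the same fit in 8 lists of 92 genes, of which 70 were tested, 9 rose and 8 fell (24.3%, beside 9.96% of all genes tested). Without shNC 3, 15 rose and 16 fell (44.3%, beside 28.1% of all genes tested in that fit, 14.3% higher and 13.8% lower). The lists were chosen with earlier results of these data known, so their called shares are description and were not tested. The median log2 change was -0.02, beside -0.004 over all genes tested. The ligands were near the limit of detection. IGF2 had 0.71, 0.68 and 0.44 TPM in shCUEDC1 and 0.72, 0.93 and 0.47 TPM in shNC (log2 difference -0.20, edgeR adjusted p = 0.748), and IGF1, which did not pass the filter, had at most 0.14 TPM in shCUEDC1 and 0.12 TPM in shNC. The medium contained serum, a source of IGFs that RNA does not show.

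IGFBP1, the remaining high-affinity binding protein, lies 18576 bases from IGFBP3 on chromosome 7 with no protein-coding gene between them. It had 0 reads in each shCUEDC1 library, a count that allows up to 3 reads, and 2, 3 and 7 reads in shNC 1, 2 and 3, and it did not pass the filter. Of 7 tested genes in its list, which holds proteins with an IGFBP-type domain, 1 rose and 4 fell, with a median log2 change of -0.57. The called share was 71.4%, beside 9.96% of all genes tested (5.19% higher and 4.77% lower). By limma-trend it was 42.9%, beside 8.26% of all genes. Leaving out 1 library gave from 14.3% (without shCUEDC1 1 or shCUEDC1 3, beside 3.66% and 3.71% of all genes) to 85.7% (without shNC 3, beside 28.1%). CRIM1, a transmembrane protein with an IGFBP motif, had 45.4, 41.8 and 41.2 TPM in shCUEDC1 and 89.1, 79.3 and 79.7 TPM in shNC (log2 change -0.92, SE 0.0641, edgeR adjusted p = 6.465e-05). The groups were far apart relative to their spread. The matricellular proteins CCN2, CCN3 and CCN1, targets of several growth signals, changed by -1.76, -1.49 and -0.42 on the log2 scale. CCN2 was at 0.32, 0.41 and 0.18 TPM in shCUEDC1 and 0.86, 1.13 and 1.21 TPM in shNC. CCN3 in shNC 3 (2.43 TPM) lay close to the shCUEDC1 libraries, whose highest value was 1.96 TPM. Without shNC 3 the log2 change of CCN3 was -1.80. KAZALD1, outside the naming rule and named after its value was seen, rose by 0.25 on the log2 scale (edgeR adjusted p = 0.0498). CCN2 lost its call without shCUEDC1 1 (edgeR adjusted p = 0.0679) and without shCUEDC1 3 (0.0719). CCN1 and KAZALD1 were not called without shNC 1 or any single shCUEDC1 library (highest edgeR adjusted p 0.0993 and 0.176), and CCN3 was called only without shNC 3 among the fits that leave out a library (highest 0.131). With all libraries, CCN3 was also not called by limma-voom (adjusted p = 0.0887) or limma-trend (0.0526), and KAZALD1 not by limma-trend (0.118) or with a replicate block (0.0571).

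IGFBP proteases and their inhibitors had 0 rises and 2 falls among 7 tested, with a median of -0.18. The called share was 28.6%, beside 9.96% of all genes tested (5.19% higher and 4.77% lower). HTRA1, a secreted serine protease that cleaves IGFBP5, had 3.40, 4.31 and 3.13 TPM in shCUEDC1 and 9.46, 10.2 and 7.65 TPM in shNC (log2 change -1.31, SE 0.168, edgeR adjusted p = 0.00168). The groups did not overlap. STC1, a stanniocalcin that inhibits the IGFBP4 protease PAPPA, fell by 0.58 on the log2 scale (edgeR adjusted p = 0.0201), but was called only without shNC 3 among the fits that leave out a library (highest edgeR adjusted p 0.106). Without shNC 3 the log2 change of STC1 was -0.71. STC2, the other stanniocalcin of the list and outside the naming rule, averaged 191 TPM in shCUEDC1 and 221 TPM in shNC. It was not called (log2 difference -0.18, edgeR adjusted p = 0.211). PAPPA itself did not pass the filter and averaged 0.02 TPM in shCUEDC1 and 0.0833 TPM in shNC.

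Substrates and adaptors of the receptors had 3 rises and 0 falls among 15 tested, with a median of 0.10. Called genes made up 20% of this list, beside 9.96% of all genes tested (5.19% higher and 4.77% lower). IRS1, the docking protein that links IGF1R and INSR to PI3K, had 23.8, 22.8 and 21.5 TPM in shCUEDC1 and 15.6, 15.6 and 12.1 TPM in shNC (log2 change 0.68, SE 0.1, edgeR adjusted p = 0.00377). The groups did not overlap, and its change was 0.56 without shNC 3. GAB1 and CRKL, adaptors, rose by 0.30 and 0.24 on the log2 scale, and both lost their calls without shNC 1 or any single shCUEDC1 library (highest edgeR adjusted p 0.0729 and 0.132). CRKL was also not called by limma-trend (adjusted p = 0.062).

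Genes of receptor attenuation and turnover had 4 rises and 0 falls among 18 tested, with a median of 0.04. The called share was 22.2%, beside 9.96% of all genes tested (5.19% higher and 4.77% lower). ARRB1, a beta-arrestin, rose by 0.53 on the log2 scale (SE 0.082, edgeR adjusted p = 0.00427) to 40.2, 40.4 and 33.5 TPM in shCUEDC1, against 25.2, 25.1 and 30.5 TPM in shNC. Without shNC 3 the log2 change of ARRB1 was 0.61. SOCS2, a feedback inhibitor of cytokine and growth hormone signalling, rose by 1.5 on the log2 scale, and the ubiquitin ligases CBL and NEDD4 by 0.32 and 0.21. SOCS2 was low, at 2.92, 2.48 and 3.13 TPM in shCUEDC1 and 1.33, 1.19 and 0.53 TPM in shNC. Its log2 change was 1.19 without shNC 3. SOCS2 lost its call without any single shCUEDC1 library (highest edgeR adjusted p 0.0787), and CBL and NEDD4 were called only without shNC 3 among such fits (highest 0.130 for each). Neither CBL nor NEDD4 was called by limma-trend (adjusted p = 0.0999 and 0.0684). PCSK6, a proprotein convertase, fell by 0.64 on the log2 scale (edgeR adjusted p = 0.00664). It was the only called gene of 12 tested for receptor processing and the mannose 6-phosphate route (8.33%). M6PR, the other mannose 6-phosphate receptor, was outside the naming rule and averaged 65.0 TPM in shCUEDC1 and 65.4 TPM in shNC.

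Among reported partners of the binding proteins, 1 rose and 1 fell of 9 tested (22.2%, beside 9.96% of all genes tested). The median was -0.05. FN1, fibronectin, rose by 0.87 on the log2 scale (SE 0.089, edgeR adjusted p = 5.71e-04) to 29.7, 29.5 and 29.3 TPM in shCUEDC1, against 14.4, 15.7 and 19.6 TPM in shNC. Without shNC 3 the log2 change of FN1 was 0.99. ITGAV, an integrin subunit, fell by 0.36 on the log2 scale, with calls lost without shNC 1 or any single shCUEDC1 library (highest edgeR adjusted p 0.141). The IGF2 mRNA-binding proteins, which are no relatives of the IGFBPs, had 1 tested member, IGF2BP2, with a log2 difference of 0.02 (edgeR adjusted p = 0.935), while IGF2BP3 averaged 0.257 TPM in shCUEDC1 and 0.263 TPM in shNC.

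**Figure D5:**
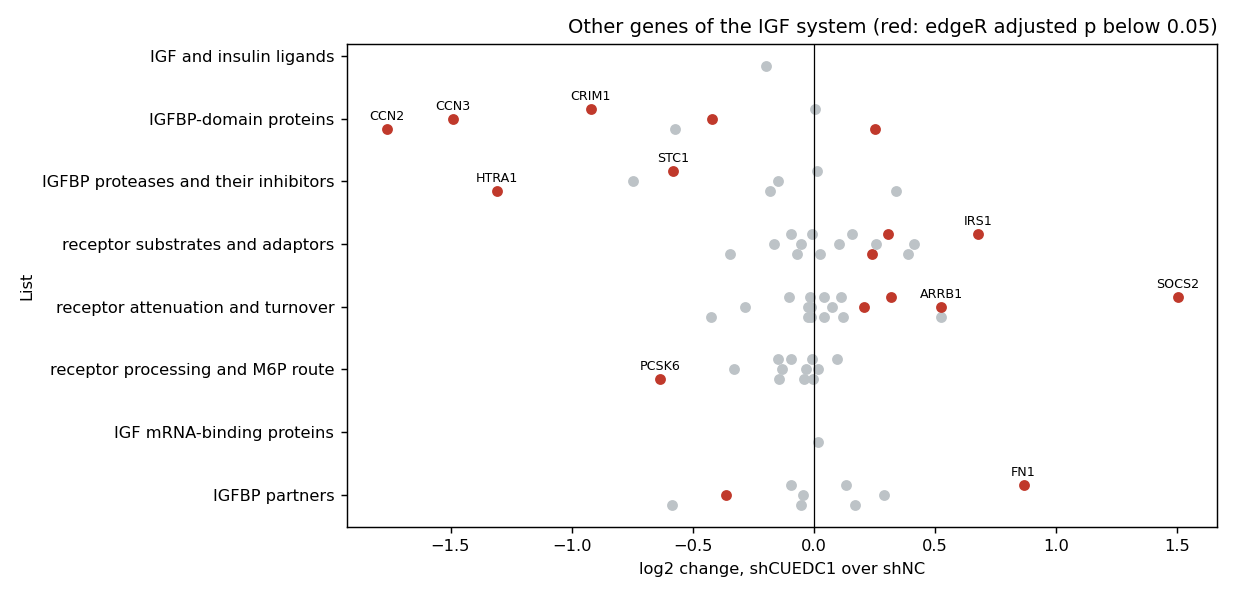
Log2 change, shCUEDC1 over shNC, of the 70 tested genes of the 8 lists, in rows by list, with called genes in red and names for those beyond 0.5. CRIM1, CCN2, CCN3 and HTRA1 lie on the left, and SOCS2, FN1 and IRS1 on the right.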

How the data were processed

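RNA levels were measured in 6 T47D libraries, 3 per group, from oligo(dT)-enriched RNA with random-primed cDNA, per the labels' protocols. The genome build was GRCh38.p13, per the submitters' processing notes. Aligner, counter and strand setting were not given in the sources used here. Per the file headers, the authors deposited read counts, which are estimated counts with fractions (21.8% to 24.7% of values are whole), FPKM and TPM, in which the authors corrected for length and depth. A further 14 columns were not used.

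The estimated counts were rounded, filtered with filterByExpr (minimum count 10), normalised by TMM and compared with edgeR 4.0.16 in R 4.3.3 (quasi-likelihood F test, robust, Benjamini-Hochberg over 13824 genes), after a check on simulated counts. Levels are deposited TPM, and log2 changes are shCUEDC1 over shNC. Exact permutation tests used log2(TPM + 0.1). The alternatives were RLE factors, no filter, a filter of 1 CPM in 3 or more libraries, limma-trend on log2(FPKM + 0.5) and limma-voom (limma 3.58.1), DESeq2 1.42.0, a replicate block, each library left out, TPM pseudocounts of 0.01 and 1, and CPM for TPM.

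Named genes are the 9 members, CUEDC1, up to 4 called genes per list by smallest p (the 2 highest by TPM where none was called), and the 2 genes of at least 1 TPM with the most similar pattern for each called member. The members and lists were chosen with earlier results of these data known. Gene positions are from GENCODE v29 on GRCh38.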

Additional observations from a re-analysis of the deposited data

How the results depend on the processing

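IGFBP3 kept its call under 13 of 13 alternatives, IGFBP4 under 8 and IGFBP7 under 4, all with the same direction, and IGFBP4 also lost its call by limma-trend on FPKM (adjusted p = 0.0512). Of the 16 named genes of the lists called with 6 libraries, 6 (CRIM1, HTRA1, IRS1, ARRB1, PCSK6 and FN1) kept their calls in every alternative run, and none of the 16 changed direction. Leaving out 1 library gave between 468 and 3925 genes called (1377 with all), between 1 and 4 of the 9 members (3 with all) and between 6 and 31 list genes (17 with all). The highest counts came without shNC 3, and fits with 1 library fewer have fewer samples. The uncalled difference of IGFBP2 changed sign, at -0.003 by limma-trend and between -0.082 and 0.072 with 1 library left out. So did those of IGF2 (-0.423 to 0.071) and IGF2BP2 (-0.02 to 0.049) with 1 library left out. For IGFBP2 the values were -0.007 without shCUEDC1 2, -0.04 without shCUEDC1 3 and -0.082 without shNC 3, and for IGF2BP2 they were -0.02 without shCUEDC1 2 and -0.002 without shNC 3. The cause was not tested.

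Libraries share replicate numbers, but their deviations did not pair (correlations of 0.00912, 0.0707 and 0.0267 for numbers 1, 2 and 3, and not every library correlated best with its own number). With the replicate number as a block, 1117 genes, 2 members and 17 list genes were called, 16 of these also without it (KAZALD1 was lost and CTSD, with adjusted p = 0.0402, was gained), and IGFBP7 had an edgeR adjusted p of 0.0737. At 23.0 to 57.6 estimated reads per library, IGFBP7 is the member most limited by depth.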
